A study of Mus musculus with 6 samples.

Results

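The 10 transcripts listed here of the Notch pathway were followed: the receptors Notch1, Notch2 and Notch3, the ligands Jag1, Jag2 and Dll1, the DNA-binding effector Rbpj, and the target genes Hes1, Hey1 and Heyl. They were taken by gene symbol from a table of 21959 genes, and all 10 were found. The table covers 6 poly(A) RNA-seq libraries of wild-type mouse cells that the labels call HL-1, a line derived from atrial heart muscle, grown with norepinephrine and all put through oxygen-glucose deprivation and reoxygenation (OGD/R), which stands in culture for ischemia and reperfusion. For OGD/R the labels give 4 h of hypoxia in medium without glucose and 24 h of reoxygenation. In 3 libraries, called the phillyrin libraries here, phillyrin, a lignan glucoside of Forsythia, was added at 50 µg/mL for 8 h beforehand and 16 h together with OGD/R. The other 3, the OGD/R libraries, had OGD/R without phillyrin. No cells given the solvent and none kept in normal oxygen were analysed here, so phillyrin and its solvent cannot be told apart. All 6 carry the same batch label, and the labels do not say whether replicate libraries are separate cultures. The p-values therefore reflect the spread of these libraries, which may be technical only.

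Notch receptors are single-pass proteins that meet Jagged or Delta-like ligands on a neighbouring cell. Binding exposes the receptor to the protease ADAM10 and then to gamma-secretase, and the freed intracellular domain enters the nucleus, joins RBPJ and Mastermind-like coactivators, and switches on HES and HEY genes, which encode repressors of the basic helix-loop-helix kind. In muscle precursors Notch signalling is known for holding back differentiation, and in the developing heart for shaping valves and trabeculae.

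The phillyrin libraries held 14761317 to 22123648 counts and the OGD/R libraries 18179405 to 20433200. Genes of the mitochondrial genome held 3.49%, 3.59% and 4.27% of the counts of phillyrin replicates 1 to 3, against 3.18%, 3.30% and 3.27% in the OGD/R libraries, and the groups did not overlap. The first principal component of log2 CPM (48.4% of the variance) separated the groups. On it the phillyrin libraries lay between -18.7 and -12.6 and the OGD/R libraries between 14.5 and 16.2. On the second (15.8% of the variance) phillyrin replicates 1 to 3 lay at 13.6, 5.27 and -15.8. The OGD/R libraries lay between -1.45 and -0.519 on the second component, so phillyrin replicate 3 stood apart from the other 2. The label was checked on marker genes. Of 10 atrial cardiomyocyte markers 2, Myh6 and Sln, had no count, and all 10 together summed to 4.52 to 5.80 CPM (counts per 1000000 counts of the library) in the phillyrin libraries and 3.71 to 5.16 CPM in the OGD/R libraries. The 8 skeletal myoblast markers summed to 1088 to 1139 CPM with phillyrin and 1122 to 1141 CPM with OGD/R alone. Most of this sum was Des, at a mean of 695 CPM with phillyrin and 676 CPM with OGD/R alone. Chrna1 stood at 271 CPM with phillyrin and 305 CPM with OGD/R alone. Myod1 stood at 97.2 CPM with phillyrin and 83.2 CPM with OGD/R alone, and Myf5 at 52.5 and 64.2 CPM. Low levels were seen for Pax7 (3.17 CPM with phillyrin, 2.85 CPM with OGD/R alone) and Mymk (0.445 and 1.38 CPM). Myog and Myh3 had 45 and 34 counts over all 6 libraries. Of these 8, Myod1 was called higher and Myf5, Chrna1 and Mymk lower. The atrial label was thus not borne out by these markers. In each library Chrna1, Myod1 and Myf5, of the skeletal myoblast list, each stood above the sum of all 10 atrial markers. The values below should therefore not be read as those of atrial cells. The identity of the cells was not tested further, and they are referred to by their label only. The 8 endothelial markers summed to at most 1.35 CPM with phillyrin and 1.11 CPM with OGD/R alone, and Kdr, Tie1, Emcn and Erg had no count. The 10 smooth muscle and pericyte markers summed to 671 to 714 CPM with phillyrin and 495 to 519 CPM with OGD/R alone, with Acta2 and Mcam called higher. Most of this sum was Acta2, at a mean of 579 CPM with phillyrin and 392 CPM with OGD/R alone. Pdgfrb and Cspg4 were not called. Cnn1, Tagln, Myh11, Rgs5 and Kcnj8 had 42, 16, 10, 7 and 1 counts over all 6 libraries, and Abcc9 had none. The 6 fibroblast markers summed to 258 to 266 CPM with phillyrin and 274 to 280 CPM with OGD/R alone. Most of this sum was Col1a1, at a mean of 246 CPM with phillyrin and 254 CPM with OGD/R alone, which was not called. Pdgfra was called lower, at 11.5 CPM with phillyrin and 19.3 CPM with OGD/R alone. Dcn, at 5.26 and 4.74 CPM, was not called. Thy1 had 2 counts over all 6 libraries, and Lum and Tcf21 had none. The 6 macrophage markers summed to at most 4.27 CPM with phillyrin and 3.19 CPM with OGD/R alone. The part of these marker shifts, of the mitochondrial share and of the spread among the phillyrin libraries in the results below was not tested.

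Of the 10 genes, 8 passed the filter on low counts and were tested, Jag1 was called higher and Notch2 lower with phillyrin, and 6 were not called. Among all 11658 genes tested, 31.7% were called in either direction at an edgeR adjusted p under 0.05 (Benjamini-Hochberg), 16.0% higher and 15.6% lower, so 2 of 8 is not above the background. The median log2 fold change of the 8 was -0.02, beside -0.01 over all genes tested. The CPM of the 3 phillyrin and the 3 OGD/R libraries did not overlap for 3 of the 8, 1 higher and 2 lower, beside 43.1% of all genes tested (21.5% higher, 21.6% lower). When libraries were scaled by their totals alone, 1313 of all genes were called higher and 2455 lower, against 1871 and 1823 with TMM scaling, and the calls among the 8 were again Jag1 and Notch2. In a bulk sample, fewer expressing cells and less RNA per cell cannot be told apart.

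**Figure D1:**
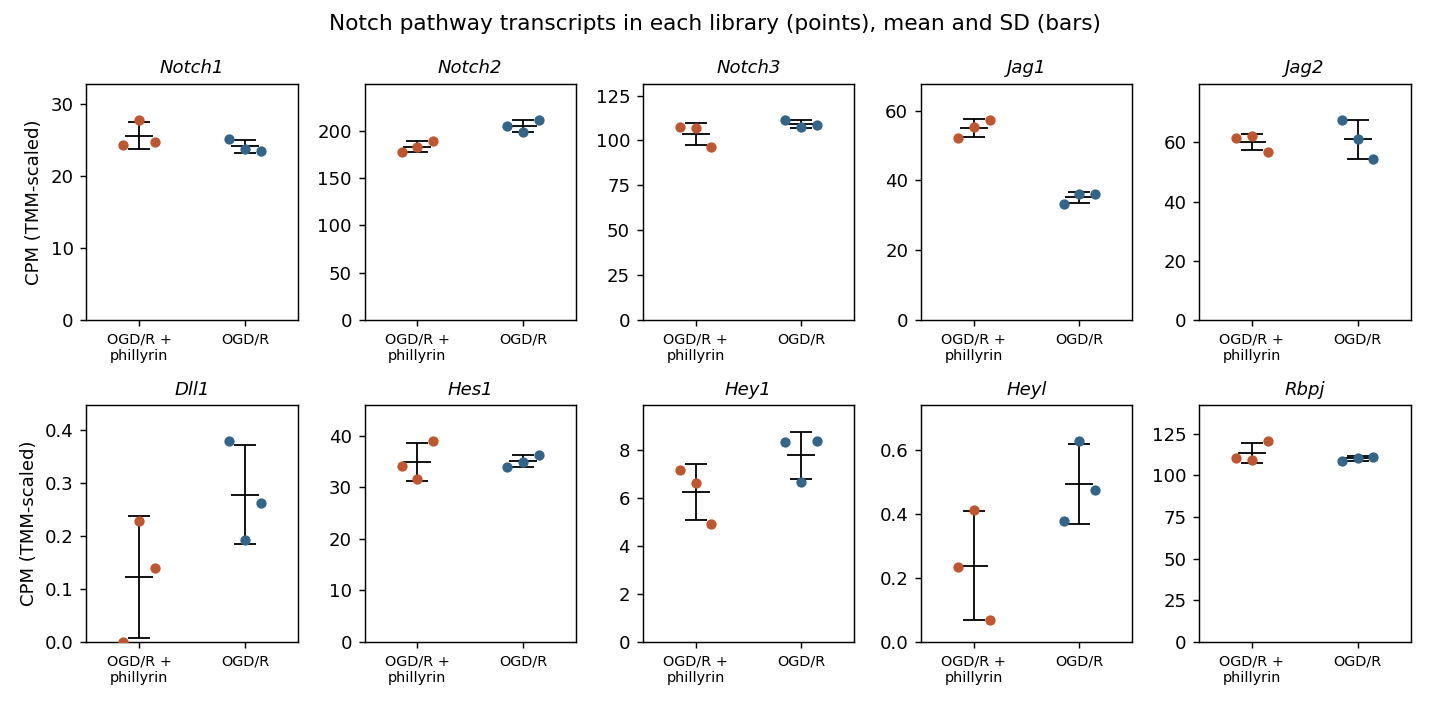
CPM scaled by TMM factors (y axis, linear from 0) of each of the 10 genes in the 3 phillyrin (left, orange) and 3 OGD/R libraries (right, blue). Points are libraries and bars the mean and SD (n = 3 each). The groups stand apart for Jag1, at 52.2 to 57.4 CPM with phillyrin and 33.3 to 36.2 CPM with OGD/R alone, and, by less, for Notch2. For Notch3, which was not called, they barely part, with 107.2 CPM the highest with phillyrin and 107.5 CPM the lowest with OGD/R alone.

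Among the ligands, Jag1 was higher with phillyrin. Jag1 (ENSMUSG00000027276, GRCm39 chromosome 2, 136923376 to 136958564, minus strand) encodes Jagged1, a transmembrane ligand of the Serrate kind. It stood at 52.2, 55.2 and 57.4 CPM in the phillyrin libraries, against 33.3, 36.0 and 36.2 CPM in the OGD/R libraries. Each phillyrin library was above every OGD/R library. The means were 54.9 ± 2.62 CPM with phillyrin and 35.2 ± 1.60 CPM with OGD/R alone (SD, n = 3 each). The log2 fold change was 0.64 (SE 0.06, edgeR adjusted p = 2.99e-10), which is 1.56-fold with a 95% interval of 1.43 to 1.71. By p-value it ranked 152 among the 11658 genes tested. The median size of a called change over all genes was 0.26 on the log2 scale.

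Jag2 (ENSMUSG00000002799, chromosome 12, 112871439 to 112893396, minus strand), the second Jagged ligand, stood at 61.4, 62.0 and 56.8 CPM in the phillyrin libraries, against 67.6, 61.1 and 54.4 CPM in the OGD/R libraries. The phillyrin values lay inside the OGD/R range. Its log2 fold change was -0.02 (SE 0.06, 95% interval -0.15 to 0.11, edgeR adjusted p = 0.848), and the sign turned without phillyrin replicate 3 (0.02) or OGD/R replicate 1 (0.06). Dll1 (ENSMUSG00000014773, chromosome 17, 15587616 to 15597134, minus strand), a Delta-like ligand, was under the filter, with 0, 5 and 2 counts in the phillyrin libraries, against 7, 4 and 5 in the OGD/R libraries. The summed counts, 7 with phillyrin and 16 with OGD/R alone, give a ratio of 0.464 per library total, with an exact 95% Poisson interval of 0.161 to 1.19 that covers counting error only.

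The balance of the 2 Jagged ligands was described per length. On the FPKM scale, which divides by gene length and library total, Jag1 made up 50.4%, 51.4% and 54.6% of the summed level of Jag1, Jag2 and Dll1 in the phillyrin libraries, against 36.8%, 41.2% and 44.1% in the OGD/R libraries. On this scale Jag1 was thus the more abundant of both Jagged transcripts in each phillyrin library and the less abundant in each OGD/R library. The margin was small in phillyrin replicate 1, with a ratio of Jag1 to Jag2 of 1.02, and the order rests on the gene lengths used. By CPM, Jag2 was above Jag1 in phillyrin replicate 1 (61.4 against 52.2 CPM) and replicate 2 (62.0 against 55.2 CPM). The ratio of Jag1 to Jag2 averaged 1.10 ± 0.0993 with phillyrin and 0.696 ± 0.103 with OGD/R alone (SD, n = 3 each; two-sided exact permutation p = 0.1, the smallest that 3 against 3 allows, and 0.2 adjusted over the 4 ratios computed). These ratios were chosen with the values of the single genes known. Dll1 took at most 0.294% of the ligand level in a phillyrin library and 0.578% in an OGD/R library.

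**Figure D2:**
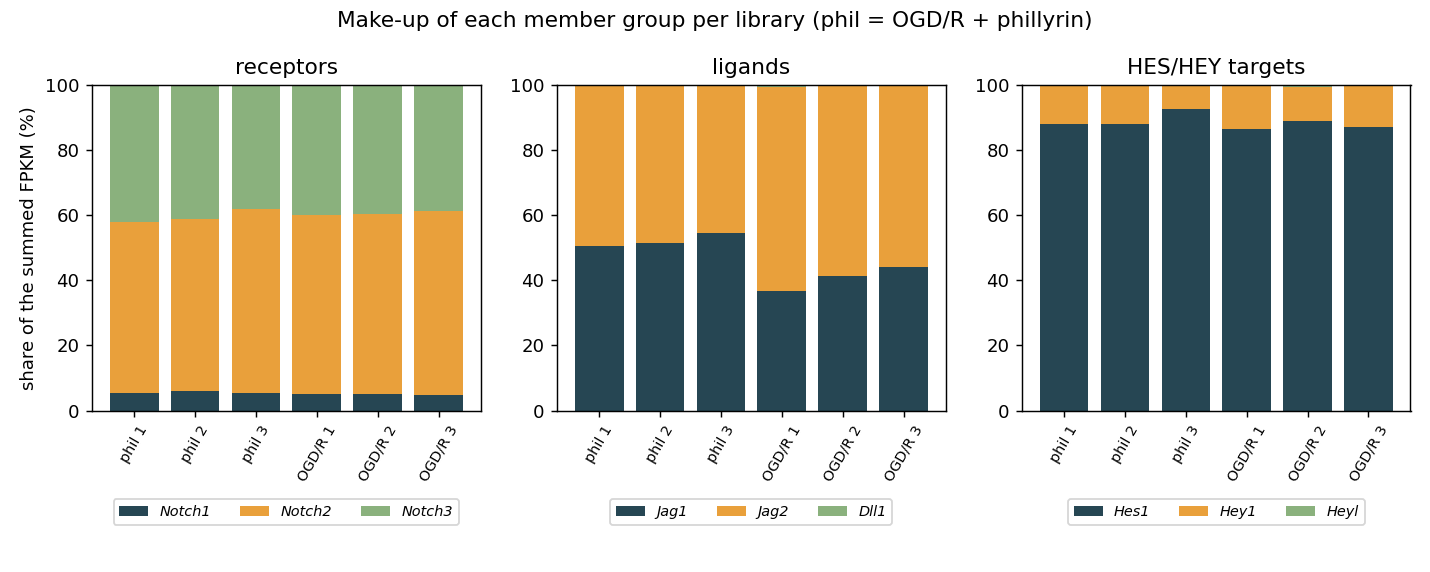
Share of the summed FPKM of the 3 receptors, the 3 ligands and the 3 HES/HEY targets (y axis, %) in each library, phillyrin libraries left of the OGD/R libraries. Jag1 took 52.1% of the ligand level on average with phillyrin and 40.7% with OGD/R alone, while Notch2 led the receptors and Hes1 the targets in all 6 libraries.

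The promoters of the 2 called genes, Jag1 and Notch2, are shown with that of Jag2, the ligand tested but not called. All 3 windows hold a short motif, as does a window of Dll1 that is not printed. RefSeq (GRCm38.p6) gave windows from 250 bases before to 50 after a transcription start for 7 of the 10 genes, 9 windows in all. Capitals mark CACGCG or its reverse complement CGCGTG, a hexamer of the class that HES proteins are known to bind. The Jag1 window is chr2:137116471-137116770 on the minus strand, the Jag2 window chr12:112929446-112929745 on the minus strand, and the Notch2 window chr3:98013288-98013587 on the plus strand, and each is printed 5′ to 3′ along the gene.
Jag1: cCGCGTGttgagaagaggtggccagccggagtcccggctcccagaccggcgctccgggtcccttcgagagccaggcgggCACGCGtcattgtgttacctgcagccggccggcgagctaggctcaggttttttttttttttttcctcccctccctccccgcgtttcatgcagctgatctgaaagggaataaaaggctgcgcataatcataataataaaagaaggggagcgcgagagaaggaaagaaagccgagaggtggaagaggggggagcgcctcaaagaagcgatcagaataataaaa
Notch2: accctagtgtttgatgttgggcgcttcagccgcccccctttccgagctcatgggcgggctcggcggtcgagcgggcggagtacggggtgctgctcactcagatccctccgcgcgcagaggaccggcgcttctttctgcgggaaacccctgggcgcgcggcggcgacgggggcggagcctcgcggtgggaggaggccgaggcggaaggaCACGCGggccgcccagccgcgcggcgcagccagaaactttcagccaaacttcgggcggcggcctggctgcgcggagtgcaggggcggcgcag
Jag2: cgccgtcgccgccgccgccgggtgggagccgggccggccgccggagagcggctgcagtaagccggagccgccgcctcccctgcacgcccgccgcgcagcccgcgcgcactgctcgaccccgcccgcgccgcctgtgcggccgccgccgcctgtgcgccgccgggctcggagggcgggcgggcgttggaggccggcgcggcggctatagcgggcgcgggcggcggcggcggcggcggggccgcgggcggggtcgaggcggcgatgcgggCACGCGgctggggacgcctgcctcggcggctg

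Searched on both strands, CACGCG was in windows of 4 of the 7 genes, Jag1, Notch2, Jag2 and Dll1, and in 9.27% of all 32851 RefSeq windows. Jag1 held 2 copies, starting 249 and 171 bases before the transcription start, and Notch2 held 1, starting 42 bases before it. The copy of Dll1 started 68 bases before the transcription start, and that of Jag2 18 bases after it. The hexamer is rich in G and C, and the windows of these genes had 55.7% to 86.0% G and C, against a median of 52.7% over all windows. The RBPJ core TGGGAA was in both windows of Rbpj, which overlap each other, and in 25.6% of all windows, while the longer GTGGGAA, which contains that core, was in no window of these genes and in 6.38% of all. The E-box CACGTG was in no window of these genes and in 7.15% of all, and the N-box CACNAG, also bound by HES proteins, was in windows of Dll1, Notch1, Notch2 and Notch3 and in 42.5% of all. A match describes letters in a window and does not show binding. The search was made after the expression values were known.

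Among the receptors, Notch2 was slightly lower with phillyrin. Notch2 (ENSMUSG00000027878, chromosome 3, 97920843 to 98057677, plus strand) stood at 178, 183 and 189 CPM in the phillyrin libraries, against 205, 199 and 212 CPM in the OGD/R libraries. All 3 phillyrin values were below all 3 OGD/R values. The means were 183 ± 5.74 CPM with phillyrin and 205 ± 6.28 CPM with OGD/R alone (SD, n = 3 each). The log2 fold change was -0.17 (SE 0.04, edgeR adjusted p = 0.00122). The fold was 0.892 with a 95% interval of 0.844 to 0.943.

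Notch3 (ENSMUSG00000038146, chromosome 17, 32339794 to 32385826, minus strand), a receptor known from vascular smooth muscle, stood at 107, 107 and 96.5 CPM in the phillyrin libraries, against 112, 107 and 109 CPM in the OGD/R libraries. The groups did not overlap, but by a small margin, with 107.2 CPM the highest with phillyrin and 107.5 CPM the lowest with OGD/R alone. The log2 fold change was -0.08 (SE 0.05, 95% interval -0.17 to 0.02, edgeR adjusted p = 0.236), and it was -0.03 without phillyrin replicate 3. Notch1 (ENSMUSG00000026923, chromosome 2, 26347915 to 26406675, minus strand) stood at 24.3, 27.8 and 24.6 CPM in the phillyrin libraries, against 25.1, 23.8 and 23.4 CPM in the OGD/R libraries. These ranges overlapped, and the log2 fold change was 0.09 (SE 0.08, 95% interval -0.07 to 0.25, edgeR adjusted p = 0.407). It was 0.03 without phillyrin replicate 2.

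Per length, Notch2 made up 53.8% ± 2.10 of the summed receptor FPKM with phillyrin and 55.6% ± 0.826 with OGD/R alone, and Notch3 made up 40.5% ± 2.03 with phillyrin and 39.4% ± 0.644 with OGD/R alone (SD, n = 3 each). Notch1 took 5.69% ± 0.346 with phillyrin and 4.95% ± 0.184 with OGD/R alone. The ratio of Notch2 to Notch3 averaged 1.33 ± 0.121 with phillyrin and 1.41 ± 0.0443 with OGD/R alone (SD, n = 3 each; two-sided exact permutation p = 0.4, and 0.4 adjusted over the 4 ratios). The ratio of Jag1 to Notch2 averaged 0.555 ± 0.00987 with phillyrin and 0.317 ± 0.0171 with OGD/R alone (SD, n = 3 each), with no overlap (exact permutation p = 0.1, the smallest possible, and 0.2 adjusted). Jag1 was higher and Notch2 lower, each without overlap, so the separation of their ratio and its p were fixed beforehand. They add nothing to the values of the single genes.

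**Figure D3:**
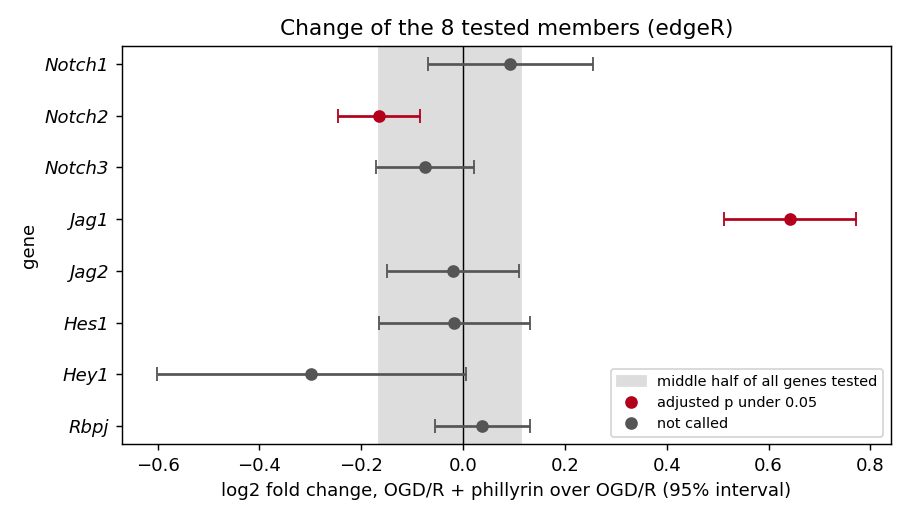
Log2 fold change of phillyrin over OGD/R (x axis) with its 95% interval for the 8 tested genes, from the edgeR fit over all 11658 genes. Red marks an adjusted p under 0.05 and the grey band the interquartile range over all genes tested, -0.17 to 0.11. Jag1 lies far to the right of the band at 0.64, and the interval of Hey1 is the widest.

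Rbpj (ENSMUSG00000039191, chromosome 5, 53623494 to 53814704, plus strand), through which the receptors act on DNA, stood at 110, 109 and 120 CPM in the phillyrin libraries, against 109, 111 and 111 CPM in the OGD/R libraries. Phillyrin replicate 3 was the highest of the 6 and the other 5 lay close together. The log2 fold change was 0.04 (SE 0.05, 95% interval -0.06 to 0.13, edgeR adjusted p = 0.570), and it was -0.01 with scaling by library totals alone and -0.0002 without phillyrin replicate 3.

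Neither of the HES and HEY targets that were tested was called, at edgeR adjusted p-values of 0.880 for Hes1 and 0.128 for Hey1 (unadjusted 0.816 for Hes1 and 0.0540 for Hey1). Hes1 (ENSMUSG00000022528, chromosome 16, 29883202 to 29886614, plus strand), the repressor most used as a readout of Notch activity, stood at 34.0, 31.7 and 38.9 CPM in the phillyrin libraries, against 34.0, 35.0 and 36.3 CPM in the OGD/R libraries. The phillyrin libraries spanned the OGD/R range on both sides. The log2 fold change was -0.02 (SE 0.07), and its 95% interval of -0.17 to 0.13 corresponds to folds of 0.892 to 1.10. It was 0.003 without phillyrin replicate 1, 0.06 without phillyrin replicate 2 and 0.01 without OGD/R replicate 3.

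Hey1 (ENSMUSG00000040289, chromosome 3, 8728419 to 8732316, minus strand), a repressor that acts downstream of Notch in heart and vessels, stood at 7.20, 6.63 and 4.94 CPM in the phillyrin libraries, against 8.33, 6.66 and 8.37 CPM in the OGD/R libraries. Phillyrin replicate 3, the shallowest library, had the lowest value, and phillyrin replicate 1 was above OGD/R replicate 2. The log2 fold change of -0.30 (SE 0.15) had a 95% interval of -0.60 to 0.01, or folds of 0.659 to 1.00. It was -0.17 without phillyrin replicate 3 and -0.40 without OGD/R replicate 2. Heyl (ENSMUSG00000032744, chromosome 4, 123127349 to 123143668, plus strand), a related repressor, had 4, 9 and 1 counts in the phillyrin libraries, against 7, 13 and 9 in the OGD/R libraries, and was not tested. The summed counts, 14 with phillyrin and 29 with OGD/R alone, give a ratio of 0.512 per library total, with an exact 95% Poisson interval of 0.250 to 0.9996 for counting error only. The library values overlapped. Tested without the low-count filter, Heyl and Dll1 had edgeR adjusted p-values of 0.348 and 0.445.

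Ordered by FPKM, the 10 genes fell into a few tiers. With phillyrin the order was Hes1 (16.8 ± 1.63), Notch2 (16.7 ± 0.381), Notch3 (12.6 ± 0.851), Jag1 (9.28 ± 0.370), Rbpj (8.75 ± 0.386), Jag2 (8.50 ± 0.477), Hey1 (1.89 ± 0.370) and Notch1 (1.77 ± 0.140), in FPKM (SD, n = 3). The library ranges of Hes1 and Notch2 overlapped, as did those of Jag1 and Rbpj, of Rbpj and Jag2, and of Hey1 and Notch1. With OGD/R alone the order was Notch2 (19.3 ± 0.578), Hes1 (17.5 ± 0.539), Notch3 (13.7 ± 0.287), Jag2 (8.89 ± 0.986), Rbpj (8.78 ± 0.0918), Jag1 (6.12 ± 0.266), Hey1 (2.42 ± 0.304) and Notch1 (1.72 ± 0.0663), in FPKM (SD, n = 3). There the ranges of Jag2 and Rbpj were the only neighbours of these 8 to overlap. Heyl and Dll1 came last in both groups, at mean levels of at most 0.0979 FPKM. Among the targets Hes1 took 89.6% ± 2.60 of the summed FPKM with phillyrin and 87.4% ± 1.26 with OGD/R alone, and the ratio of Hes1 to Hey1 averaged 9.29 ± 2.89 with phillyrin and 7.30 ± 0.991 with OGD/R alone (SD, n = 3 each; exact permutation p = 0.4, and 0.4 adjusted).

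Of the 9915 other genes whose log2 CPM averaged 2 or more, Tacc3, Cdk1 and Hmmr had the profile over the 6 libraries most like that of Jag1. Their log2 CPM, centred on the mean of the 6 libraries, differed from that of Jag1 by a root mean square of 0.03, 0.04 and 0.05. In this measure genes with a similar fold change and a small spread come out alike. The log2 fold changes of Tacc3, Cdk1 and Hmmr were 0.63, 0.62 and 0.63, beside 0.64 for Jag1. Shared control with Jag1 was not tested. With phillyrin Tacc3 stood at 164 ± 3.45 CPM and with OGD/R alone at 106 ± 2.46 CPM (SD, n = 3 each).

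The remaining pathway was described by 83 genes in 6 lists, of which 68 were tested, 10 were called higher and 10 lower. That is 29.4% of the 68, beside 31.7% of all genes tested, and their median log2 fold change was -0.02. Scaled by library totals alone, 4 were higher and 18 lower, so the split between directions rests on the scaling. Without phillyrin replicate 2 or OGD/R replicate 2, 6 were higher, and without OGD/R replicate 1, 5 were lower. The log2 fold changes of the 68 lay between -0.34 for Numbl and 0.54 for Neurl1b. The median size of a called change over all genes was 0.26 on this scale.

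**Figure D4:**
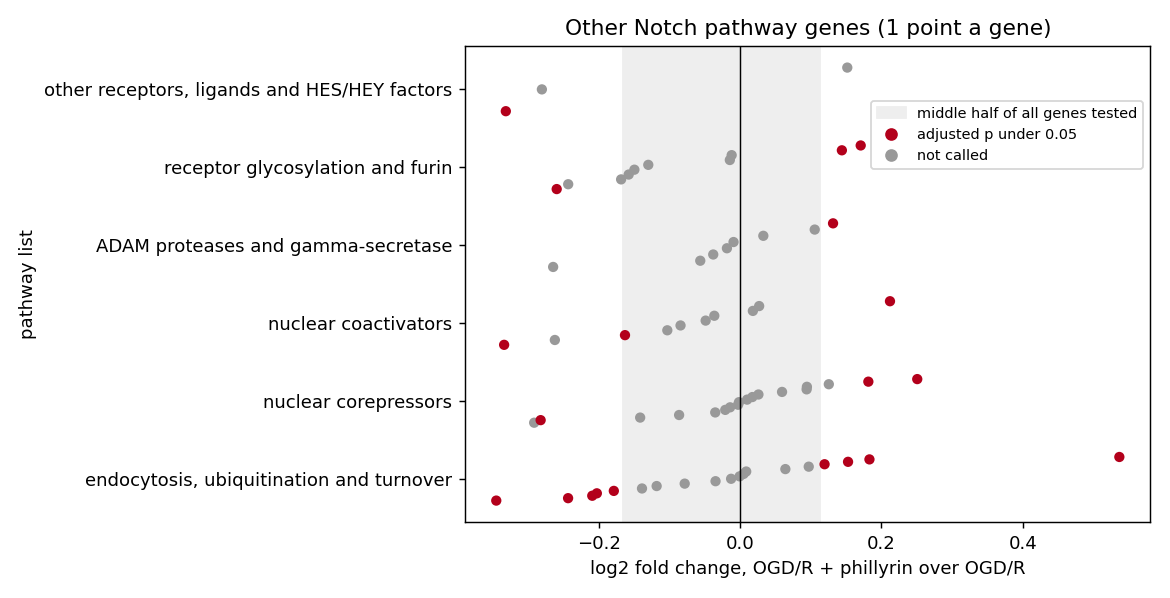
Log2 fold change of phillyrin over OGD/R (x axis) for the 68 tested genes of the 6 pathway lists (rows), 1 point a gene, red where the edgeR adjusted p was under 0.05. The grey band is the interquartile range of all genes tested, -0.17 to 0.11. Points lie on both sides of 0 in each list.

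Of the other receptors, ligands and HES or HEY factors, 12 of 15 had too few counts to be tested, and 4 of them, Dlk1, Hes2, Hes5 and Helt, had none. Notch4 had 8 counts over the phillyrin libraries and 14 over the OGD/R libraries. Hey2 had 5, 1 and 1 counts in the phillyrin libraries, against 2, 0 and 0 in the OGD/R libraries. Nrarp, a feedback inhibitor induced by Notch, had 0, 1 and 0 counts with phillyrin and 1, 4 and 0 with OGD/R alone. For Hey2 and Nrarp 1 library held most of the counts, and the library values overlapped for all 3 genes. The 1 gene called was Hes6, an antagonist of HES1, at 13.5 ± 0.683 CPM with phillyrin and 16.9 ± 0.922 CPM with OGD/R alone (SD, n = 3 each; log2 fold change -0.33, edgeR adjusted p = 0.00840, SE 0.10). Its call was lost without phillyrin replicate 2 (edgeR adjusted p = 0.0544).

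On the list of receptor glycosylation and furin, 2 of 10 tested genes were higher and 1 lower. Furin, the convertase that cleaves Notch receptors on their way to the surface, stood at 135 ± 1.75 CPM with phillyrin and 123 ± 1.06 CPM with OGD/R alone (SD, n = 3 each; log2 fold change 0.14, edgeR adjusted p = 0.00708). Poglut1, an O-glucosyltransferase of Notch repeats, was the other higher gene (log2 fold change 0.17). Xxylt1, which extends that sugar with xylose, was lower (log2 fold change -0.26), at 26.0 ± 1.53 CPM with phillyrin and 31.0 ± 1.93 CPM with OGD/R alone (SD, n = 3 each). With scaling by totals alone 0 were higher and 4 lower, the adjusted p being 0.0548 for Furin and 0.0963 for Poglut1. The call of Poglut1 was also lost without phillyrin replicate 3, OGD/R replicate 1 or OGD/R replicate 2 (edgeR adjusted p = 0.164, 0.136 and 0.111), and that of Xxylt1 without OGD/R replicate 1 (0.0531). Without phillyrin replicate 2, 2 were lower. The fringe enzyme Lfng, which alters ligand preference, was not called, at 12.8 ± 0.455 CPM with phillyrin and 14.4 ± 0.687 CPM with OGD/R alone (SD, n = 3 each; edgeR adjusted p = 0.216).

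Of the 8 tested genes of the ADAM proteases and gamma-secretase, 1 was higher and 0 were lower. Adam10, which makes the first cut after ligand binding, stood at 222, 231 and 230 CPM in the phillyrin libraries, against 207, 206 and 211 CPM in the OGD/R libraries. Each phillyrin value was above each OGD/R value, and the log2 fold change was 0.13 (SE 0.04, edgeR adjusted p = 0.00593, and 0.0562 when scaled by totals alone). The other 7 tested genes of this list were not called, with log2 fold changes between -0.26 and 0.11.

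Among 10 nuclear coactivators 1 was higher and 2 were lower. Snw1, a nuclear cofactor of splicing and of RBPJ complexes, stood at 98.8 ± 4.59 CPM with phillyrin and 85.2 ± 4.93 CPM with OGD/R alone (SD, n = 3 each; log2 fold change 0.21, edgeR adjusted p = 0.00138). Maml3, a Mastermind-like coactivator, stood at 20.4 ± 0.789 CPM with phillyrin and 25.7 ± 1.35 CPM with OGD/R alone (SD, n = 3 each; log2 fold change -0.33, edgeR adjusted p = 0.00158). The acetyltransferase gene Kat2b was the other lower one (edgeR adjusted p = 0.0488). Its call was lost under 9 of 13 alternatives, among them the omission of each library other than phillyrin replicate 3, with adjusted p-values of 0.0831 to 0.178 in those omissions. The Mastermind-like genes Maml1 and Maml2 had log2 fold changes of -0.08 and -0.26 and were not called.

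Among 18 nuclear corepressors 2 were higher and 1 lower. Tle5, a short Groucho-related protein, stood at 189 ± 6.07 CPM with phillyrin and 230 ± 12.0 CPM with OGD/R alone (SD, n = 3 each; log2 fold change -0.28, edgeR adjusted p = 8.57e-07). Ncor1, a corepressor scaffold, was higher, at 338 ± 18.4 CPM with phillyrin and 298 ± 6.81 CPM with OGD/R alone (SD, n = 3 each; log2 fold change 0.18, edgeR adjusted p = 0.000288). Bend6, an RBPJ-binding repressor, had a log2 fold change of 0.25, and its call was lost without phillyrin replicate 2 (edgeR adjusted p = 0.0514) or OGD/R replicate 2 (0.0971). Without either of those, 1 was higher. Without phillyrin replicate 3 or OGD/R replicate 3, 2 were lower, and scaled by totals alone 2 were higher and 3 lower. Spen, a main RBPJ corepressor, had a log2 fold change of -0.02 (edgeR adjusted p = 0.809).

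On the list of endocytosis, ubiquitination and turnover, 4 of 19 tested genes were higher and 5 lower. Epn1, an epsin of ligand endocytosis, stood at 48.7 ± 3.16 CPM with phillyrin and 57.9 ± 2.91 CPM with OGD/R alone (SD, n = 3 each; log2 fold change -0.24, edgeR adjusted p = 0.00215). The ubiquitin ligase gene Nedd4l was lower (log2 fold change -0.21, edgeR adjusted p = 0.00315, and 0.0530 without OGD/R replicate 3), and the Notch ubiquitin ligase gene Itch higher (0.15, edgeR adjusted p = 0.00736). The call of Itch was lost without phillyrin replicate 2 (edgeR adjusted p = 0.0575) or OGD/R replicate 2 (0.0610), and with scaling by totals alone (0.0558). Neurl1b, a ligase of the ligands named here after its values were seen, had the largest change of the 68, at 6.21 ± 0.634 CPM with phillyrin and 4.31 ± 0.280 CPM with OGD/R alone (SD, n = 3 each; log2 fold change 0.54, edgeR adjusted p = 0.00958, and 0.0729 without phillyrin replicate 2, SE 0.16). Mib1, a ligase tied to ligand endocytosis, had a log2 fold change of 0.01 (edgeR adjusted p = 0.898). The higher genes numbered 1 without phillyrin replicate 2, 2 with any 1 of the OGD/R libraries left out, and 1 with scaling by totals alone. The lower genes numbered 3 without phillyrin replicate 3 or OGD/R replicate 3, and 2 without OGD/R replicate 1.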

How the data were processed

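Poly(A) RNA of 6 libraries was read from both ends at 150 bases, per the labels' protocols. Per the submitters' processing notes, Trimmomatic 0.39, HISAT2 2.2.1, featureCounts 2.0.3, DESeq2 1.34.0 and the build GRCm39 were used; roles, settings and strand are not given in sources used here. The deposited table holds raw read counts and FPKM per gene, per the file headers. The FPKM values deposited by the authors matched count over length and library total within a relative difference of 2.43e-07. Columns were assigned by sample title, since the description names 1 column for all 3 phillyrin libraries. No other gene of the table overlapped the 10.

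The whole count table was filtered by filterByExpr and tested by the quasi-likelihood test of edgeR (edgeR 4.0.16, limma 3.58.1, R 4.3.3; TMM, robust, two-sided). CPM use TMM-scaled library sizes; log2 CPM use a prior count of 2. FPKM use unscaled totals. TMM factors lay between 0.974 and 0.991 in the phillyrin libraries and between 1.014 and 1.018 in the OGD/R libraries. Compared with CPM, FPKM levels are thus slightly lower with phillyrin relative to OGD/R alone. Shares and ratios within a library are not affected. A count of 0 allows up to 0.136 to 0.203 CPM (3 counts) per library, for counting error only. The script was tested on simulated counts. Alternatives were RLE factors, library totals alone, DESeq2 1.42.0, limma-voom, no filter, a minimum mean of 1 CPM, a replicate block, and omission of each library.

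The 10 genes and the lists were chosen with earlier results of these data known. Named were these 10, the 3 called genes of smallest p per list, the 3 genes most like the gene of smallest p, and markers. Other genes were named after their values were seen.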

Additional observations from a re-analysis of the deposited data

How the results depend on the processing

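Jag1 stayed higher (log2 fold change 0.60 to 0.68) and Notch2 lower (-0.21 to -0.14), both past the threshold, under all 13 alternatives, with adjusted p-values of at most 9.57e-08 and 0.0234. None of the other 6 tested genes was called under any of them, the lowest adjusted p-values being 0.0576 for Notch3 and 0.0721 for Hey1. The sign turned for values near 0: over the omissions of single libraries the Jag2 log2 fold change ranged from -0.095 to 0.059, the Hes1 log2 fold change from -0.092 to 0.057 and the Rbpj log2 fold change from -0.00022 to 0.069, and scaled by library totals alone Rbpj was at -0.0059. That scaling moved the median of all genes from -0.01 to -0.06, which lowers the log2 fold changes of all genes by about the same amount. Under it the pathway lists together had 4 genes higher and 18 lower, receptor glycosylation 0 and 4, ADAM proteases and gamma-secretase 0 higher, corepressors 3 lower, and turnover 1 higher. Coactivators had 1 lower with RLE factors, DESeq2 or no filter. Corepressors had 2 lower with limma-voom or a minimum mean of 1 CPM. Over the omissions of single libraries, higher and lower counts ranged from 6 to 10 and 5 to 9 for all lists together, from 1 to 2 and 0 to 2 for receptor glycosylation, from 1 to 2 and 1 to 2 for corepressors, and from 1 to 4 and 2 to 5 for turnover. The lower counts ranged from 0 to 1 for the other receptors, ligands and factors and from 1 to 2 for coactivators. The cause of these shifts was not tested.

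Deviations from the group means had correlations between 0.003 and 0.006 for same-numbered libraries and between -0.0046 and 0.0013 for the other pairs. All were near 0, and with 3 libraries a group they cannot decide whether the numbers pair the libraries. With the replicate block 1867 genes were higher and 1842 lower, Jag1 and Notch2 were again the 2 called, and coactivators had 1 lower.

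Depth limits Dll1 and Heyl, with 23 and 43 counts over all 6 libraries.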
